A study of Mus musculus with 3 samples.

Results

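The D cyclins and the inhibitors of cyclin-dependent kinases (CDKs) were described in mouse mpkCCD cells with and without knockdown of the glucocorticoid receptor. The genes were taken by symbol: Ccnd1, Ccnd2 and Ccnd3, which encode the D cyclins; Cdkn1a, Cdkn1b and Cdkn1c, which encode the CIP/KIP inhibitors p21, p27 and p57; and Cdkn2a, Cdkn2b, Cdkn2c and Cdkn2d, which encode the INK4 inhibitors p16, p15, p18 and p19 together with ARF. These were 10 of the 51803 gene symbols in the table, and 51 of its 128603 transcripts carried one of these symbols. All 10 were expressed, that is, over 0.3 FPKM (a fragment count scaled to transcript length and library size) in at least 1 of the 3 libraries, as were 15438 symbols in all. For most of them the differences between the knockdown cells and the control cells were small: no gene differed by 2-fold in both knockdown lines. Larger differences were seen in single minor transcripts of Cdkn1a, Ccnd3 and Cdkn2a. Of 28 transcripts over 0.3 FPKM, 4 were at least 2-fold lower and 2 at least 2-fold higher in both lines. Of all expressed transcripts 8.06% were lower and 9.91% higher by the same rule.

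The mpkCCD cells are an immortalized line that models principal cells, in which vasopressin controls water reabsorption in the collecting duct of the kidney through the water channel AQP2. The shGR1 and shGR2 cells each carried a stable lentiviral small hairpin RNA against the glucocorticoid receptor gene Nr3c1, with a different sequence in each, and the shCtrl cells carried a non-targeting hairpin. All 3 lines were selected with puromycin, used between passages 18 and 32, grown on porous supports, kept in medium from which serum and supplements other than dexamethasone had been taken away, and given the vehicle without the vasopressin analog dDAVP. RNA-seq was done on 1 library of each line, so no value had a replicate check, and the mean ± SD given below is over the 2 knockdown lines (n = 2), which differ in hairpin. Each line is a separate selected culture, and the effect of the knockdown cannot be told apart from other differences between the cultures.

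Nr3c1 was at 4.41 FPKM in shGR1 cells and 9.13 FPKM in shGR2 cells, against 30.2 FPKM in shCtrl cells, that is 14.6% and 30.3% of the control. The authors report a weaker reduction of the receptor mRNA in their methods, nearly equal in shGR1 and shGR2 cells. All 6 genes of a list of glucocorticoid-induced genes were at least 2-fold lower in both lines, with a median mean log2 ratio of -2.71. Of all expressed symbols 3.66% were. The list was chosen with earlier results of these data known, so it is no independent check of the knockdown. Of 12 markers of principal cells 11 were expressed, and Scnn1b was below 0.3 FPKM in all 3 libraries. Of the 11, 6 were lower in both lines, 4 higher and 1 on opposite sides. Among all expressed symbols 43.8% were lower and 31.8% higher in both lines. Aqp2 was at 0.751 and 2.14 FPKM in shGR1 and shGR2 cells, against 9.55 FPKM in shCtrl cells. Aqp3 went the other way, at 9.11 and 8.97 FPKM, against 6.49 FPKM in shCtrl cells. Of 4 intercalated cell markers Foxi1 was listed at 0, and only Atp6v1b1 was over 0.3 FPKM, at 20.2 and 18.1 FPKM in shGR1 and shGR2 cells, against 39.4 FPKM in shCtrl cells. Of 4 proximal tubule markers Slc34a1 and Slc22a6 were listed at 0, and only Lrp2 was over 0.3 FPKM, at 1.0997 and 2.10 FPKM in shGR1 and shGR2 cells, against 1.05 FPKM in shCtrl cells. Of 4 leukocyte markers Csf1r was the highest, at 11.01 and 11.06 FPKM in shGR1 and shGR2 cells, against 18.2 FPKM in shCtrl cells. Cd68 was also over 0.3 FPKM, at 2.67 and 2.75 FPKM in shGR1 and shGR2 cells, against 2.23 FPKM in shCtrl cells. The FPKM of all transcripts summed to between 427704 and 462522 per library, and the mitochondrial share was between 8.57% and 9.17%. The number of reads was unknown.

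D cyclins bind CDK4 and CDK6 when growth signals are present, and the active kinases phosphorylate the retinoblastoma protein, which releases E2F factors and lets a cell pass from G1 into S phase. INK4 proteins bind CDK4 and CDK6 themselves and keep cyclin D out, whereas CIP/KIP proteins bind the cyclin and the kinase together and inhibit CDK2 complexes. ARF is not a CDK inhibitor: it binds MDM2 and so stabilizes p53, which in turn activates Cdkn1a. Glucocorticoids are known to lower cyclin D levels and to raise CDK inhibitors in several cell types. mpkCCD cells derive from a mouse carrying the large T antigen of simian virus, a protein that binds the retinoblastoma protein and p53.

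Cdkn2a was at 85.1 FPKM in shGR1 cells and 78.7 FPKM in shGR2 cells, against 80.0 FPKM in shCtrl cells, and the symbol holds 2 products that have to be kept apart. Both are read from 1 locus on the minus strand of chromosome 4 (GRCm38). The ARF transcript ENSMUST00000107131 begins with exon 1β at chr4:89294334-89294653, the p16INK4a transcript ENSMUST00000060501 begins with exon 1α at chr4:89281986-89282192, and both are spliced to the same exon 2 at chr4:89276645-89276985. The coding part of each first exon is shown here in lower case, followed by the first 21 bases of the shared exon 2 in capitals, because these first exons are what tells the products apart.
Cdkn2a ARF, exon 1β: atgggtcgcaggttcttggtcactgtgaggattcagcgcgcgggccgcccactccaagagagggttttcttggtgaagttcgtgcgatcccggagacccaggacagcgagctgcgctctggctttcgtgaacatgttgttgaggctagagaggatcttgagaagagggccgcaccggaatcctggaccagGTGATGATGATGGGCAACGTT
Cdkn2a p16INK4a, exon 1α: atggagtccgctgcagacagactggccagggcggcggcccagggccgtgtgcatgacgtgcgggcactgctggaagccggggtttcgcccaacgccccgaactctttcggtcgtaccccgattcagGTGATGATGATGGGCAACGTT
Exon 1β brings 190 coding bases and leaves 1 base after whole codons, and exon 1α brings 126 and leaves 0. The capital letters are therefore read in a different frame in the 2 products.

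The ARF transcript accounted for nearly all of the Cdkn2a signal. It was at 84.7 FPKM in shGR1 cells and 78.3 FPKM in shGR2 cells, against 80.0 FPKM in shCtrl cells, which is 99.6% and 99.4% of the symbol, against 99.9%. The p16INK4a transcript was at 0.363 FPKM in shGR1 cells and 0.442 FPKM in shGR2 cells, against 0.0753 FPKM in shCtrl cells. The log2 ratios were 2.27 and 2.56, but at these levels the values rested on a rough estimate of 9 and 13 fragments, against 2 in shCtrl cells, and Cufflinks divided fragments of the shared exons between the transcripts. This difference was not tested, since each line had 1 library, and at this depth the p16INK4a transcript was close to the limit of detection in shCtrl cells.

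The bases before each start are given for comparison, from the RefSeq table of promoters (GRCm38.p6), cut where an annotated exon begins. The first is chr4:89294654-89294869 and the second chr4:89282193-89282442, both on the minus strand.
Before the ARF start: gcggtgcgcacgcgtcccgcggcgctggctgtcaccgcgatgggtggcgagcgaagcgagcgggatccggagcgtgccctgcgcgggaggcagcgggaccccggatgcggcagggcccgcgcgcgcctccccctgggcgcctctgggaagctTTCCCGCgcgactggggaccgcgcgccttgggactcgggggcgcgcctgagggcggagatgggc
Before the p16INK4a start: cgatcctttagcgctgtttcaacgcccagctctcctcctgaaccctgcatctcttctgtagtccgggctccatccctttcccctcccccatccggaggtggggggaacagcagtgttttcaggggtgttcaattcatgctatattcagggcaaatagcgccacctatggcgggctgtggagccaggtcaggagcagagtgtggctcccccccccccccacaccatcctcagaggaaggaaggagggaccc
The capitals mark a match to the E2F motif GCGGGAA on either strand, which 3.82% of the 32851 promoters of the same length (250 bases) hold. The window before the ARF start had a GC content of 78.4%, that before the p16INK4a start 60%, and the median of all promoters was 52.4%. RefSeq promoters were matched for 7 of the 10 genes, with 11 starts in all. None was matched for Ccnd1, Ccnd2 or Cdkn1c, so the promoters of these genes were not searched. The E2F motif was in 2 of the 11 (the ARF start and the upstream start of Cdkn2c). The palindromic glucocorticoid response element was in 0 of the 11, and in 0.387% of all promoters. The AP-1 motif TGANTCA and the E-box CACGTG were also in 0 of the 11, and in 6.75% and 6.02% of all promoters. The GC box GGGCGG was found most often, in 7 of the 11 and in 32.7% of all promoters, and the TATA motif TATAAA was in 0 of the 11 and in 12.4% of all promoters. The cAMP response element TGACGTCA was in 1 of the 11, before the start of Cdkn2b, and in 1.55% of all promoters; it was searched after the sequences were read. The FOXO motif TGTTTAC was in 1 of the 11, before the upstream start of Ccnd3, and in 3.17% of all promoters. All motifs were searched on both strands within 250 bases before a start, and a match is only a description of the letters.

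In control cells the 10 genes lay at very different levels. In shCtrl cells Cdkn1b had the highest level of the 10, at 167 FPKM, and Ccnd1 (88.1), Cdkn1a (81.2) and Cdkn2a (80.0 FPKM) came next. These 3 genes had no fixed order, since over the 3 libraries Ccnd1 ranged between 53.03 and 88.1 FPKM, Cdkn1a between 68.6 and 81.2 FPKM and Cdkn2a between 78.7 and 85.1 FPKM. Cdkn2c at 57.8 FPKM and Ccnd3 at 52.8 FPKM followed, then Cdkn2b at 23.0 FPKM and Cdkn2d at 12.1 FPKM. Ccnd2 at 0.250 FPKM and Cdkn1c at 0.208 FPKM were below the limit for expression in shCtrl cells and passed it only in shGR2 cells.

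**Figure D1:**
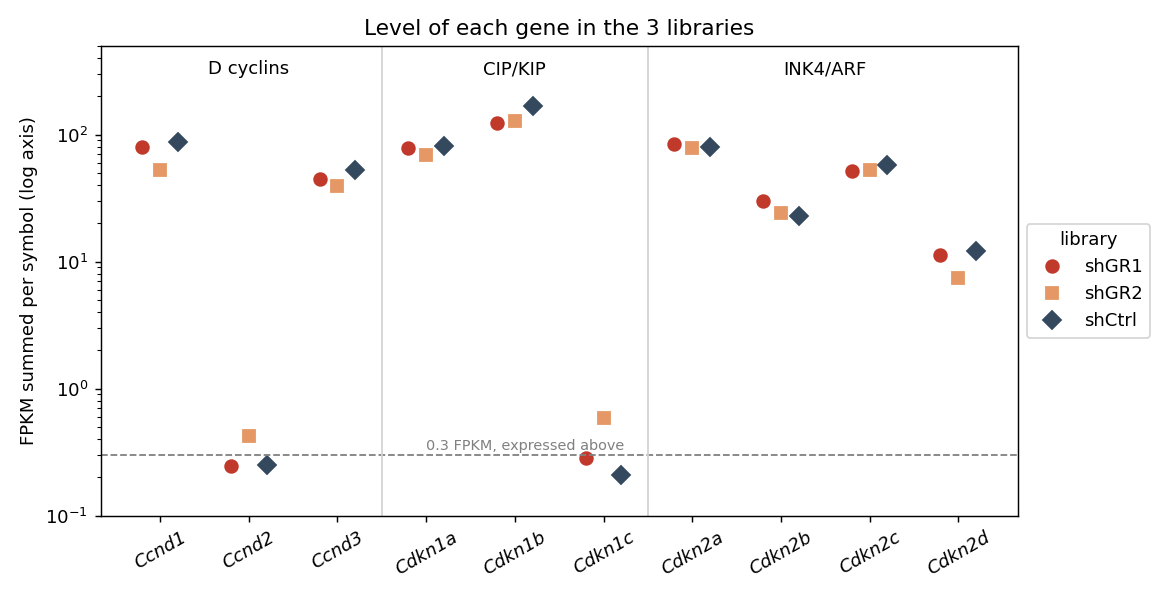
FPKM summed per gene symbol on a log axis for the 10 genes in shGR1, shGR2 and shCtrl cells, 1 point per library, with the limit of 0.3 FPKM dashed. The other 8 genes lie between 7.41 and 167 FPKM in every library, while Ccnd2 and Cdkn1c lie between 0.208 and 0.591 FPKM.

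Relative to shCtrl cells, 6 of the 10 genes were lower in both knockdown lines, 2 were higher in both (Cdkn1c and Cdkn2b), and 2 lay on opposite sides (Ccnd2 and Cdkn2a). Of all expressed symbols 43.8% were lower in both lines, 31.8% higher in both and 23.5% on opposite sides. The median mean log2 ratio was -0.14 over the 10 genes and -0.05 over the 15025 expressed symbols with a finite ratio in both lines. None of the 10 was 2-fold lower or 2-fold higher in both lines, as 3.66% and 2.54% of the expressed symbols were. The split depended on the scaling: with the libraries set to equal FPKM totals, which moved the median of all symbols by 0.10 on the log2 scale, 5 were lower and 4 higher, and 32.3% and 43.6% of the expressed symbols were. limma on log2(FPKM + 0.1), with the 2 knockdown libraries against the control, called 0 of the 10, and 0% of the expressed symbols in either direction at an adjusted p of 0.05. At an unadjusted p of 0.05 it had 1458 symbols lower (9.44%) and 699 higher (4.53%), of the 10 only Cdkn1b. With 1 control library this test had 1 residual degree of freedom. The spread was estimated from differences between the 2 knockdown lines, and the control was assumed to vary like them. An exact one-sided permutation of the 3 libraries cannot go below p = 0.333. Since whole cultures were measured, fewer cells expressing a gene and less of its RNA per cell cannot be told apart.

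**Figure D2:**
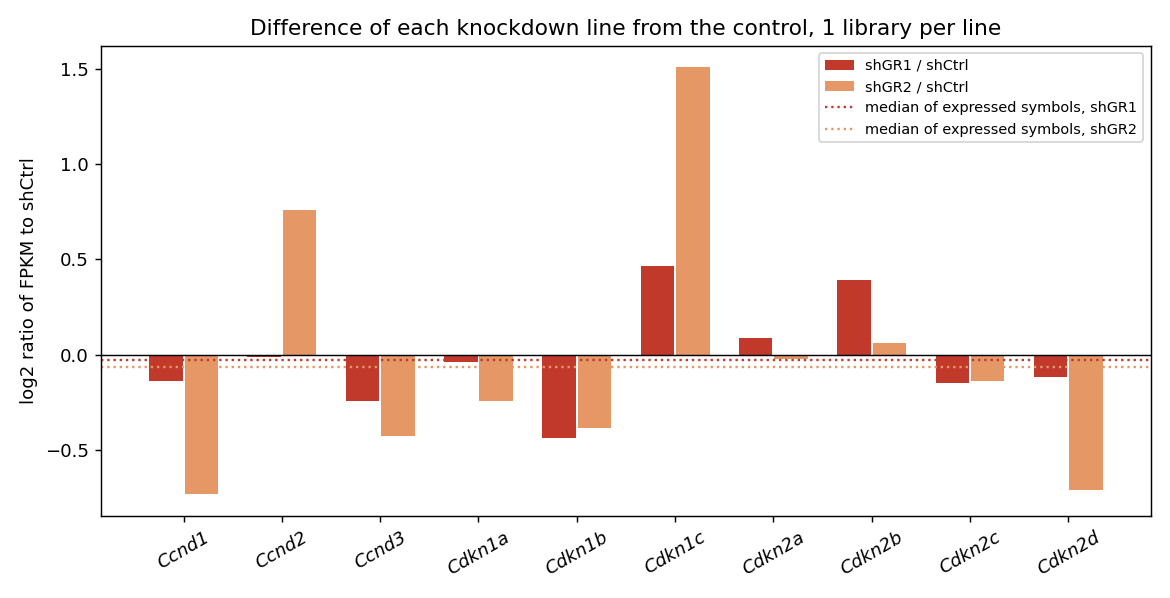
Log2 ratio of FPKM to shCtrl cells for each of the 10 genes, with a bar for shGR1 and a bar for shGR2, and dotted lines at the medians of all expressed symbols (-0.03 and -0.07). The shGR1 and shGR2 bars are of nearly equal height for Cdkn1b and Cdkn2c, and they differ most for Cdkn1c, Ccnd2, Ccnd1 and Cdkn2d.

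Ccnd1 and Ccnd3 made up nearly all D cyclin mRNA, and both were lower in the knockdown cells. Ccnd1, the D cyclin of most epithelia, was at 80.0 FPKM in shGR1 cells and 53.03 FPKM in shGR2 cells, against 88.1 FPKM in shCtrl cells. The log2 ratios were -0.14 and -0.73, with a mean of -0.44 ± 0.42, so the shGR1 value was close to the control and most of the difference lay in shGR2 cells. The limma adjusted p was 0.564. Its coding transcript ENSMUST00000093962 held 97.7%, 97.5% and 97.9% of the symbol in shGR1, shGR2 and shCtrl cells and was at 78.2 and 51.7 FPKM in shGR1 and shGR2 cells, against 86.2 FPKM in shCtrl cells.

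Ccnd3 was at 44.6 FPKM in shGR1 cells and 39.3 FPKM in shGR2 cells, against 52.8 FPKM in shCtrl cells. Both knockdown lines were below the control, at log2 ratios of -0.24 and -0.43 (mean -0.34 ± 0.13, limma adjusted p = 0.387). Of its 21 transcripts 9 were over 0.3 FPKM, and ENSMUST00000182209, which begins at the downstream start, was the main one, at 36.2 and 34.9 FPKM in shGR1 and shGR2 cells, against 44.3 FPKM in shCtrl cells. Ccnd3 overlaps Bysl on the opposite strand, which was at 9.68 and 11.4 FPKM in shGR1 and shGR2 cells, against 9.92 FPKM in shCtrl cells. Ccnd1 and Cdkn1a also overlap annotated genes on the opposite strand, LTO1 and AC167363.2, for which no values were found under these symbols. Whether the libraries kept the strand was not given in the sources used here, so reads of overlapping genes may be mixed.

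Ccnd2 was near the limit of detection, at 0.248 FPKM in shGR1 cells and 0.424 FPKM in shGR2 cells, against 0.250 FPKM in shCtrl cells. The shGR1 value was close to the control and the shGR2 value was above it (log2 ratios -0.01 and 0.76, limma adjusted p = 0.828). Summed over the class, D cyclin mRNA was at 125 FPKM in shGR1 cells and 92.8 FPKM in shGR2 cells, against 141 FPKM in shCtrl cells, a mean log2 ratio of -0.39 ± 0.30. Ccnd1 made up 64.1% and 57.2% of this sum in shGR1 and shGR2 cells, against 62.4% in shCtrl cells.

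Most proliferation markers lay in the other direction from Ccnd1 and Ccnd3. Of 15 markers 12 were higher in both lines, 2 were lower and 1 was on opposite sides (Mcm5), with a median mean log2 ratio of 0.32. Among all expressed symbols 31.8% were higher and 43.8% lower in both lines. The 2 lower ones were Mcm3 and Mcm2, with mean log2 ratios of -0.29 and -0.10. The FPKM of the 15 markers summed to 2004 in shGR1 cells and 1847 in shGR2 cells, against 1651 in shCtrl cells. Mki67 was at 76.5 and 73.3 FPKM in shGR1 and shGR2 cells, against 46.4 FPKM in shCtrl cells (mean log2 ratio 0.69 ± 0.04). Bub1, Plk1 and Cdk1, which act in mitosis, had mean log2 ratios of 0.52 ± 0.26, 0.49 ± 0.05 and 0.46 ± 0.07. None of the 15 passed limma at an adjusted p of 0.05, and 4 had an unadjusted p under 0.05. Their part in the D cyclin values was not tested.

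Cdkn1b showed the most even difference among the CIP/KIP genes. p27, its product, holds cells in G1 and is mostly controlled through its breakdown. Cdkn1b mRNA was at 123 FPKM in shGR1 cells and 128 FPKM in shGR2 cells, against 167 FPKM in shCtrl cells, so the knockdown lines were close to each other and both below the control. The log2 ratios were -0.44 and -0.39, with a mean of -0.41 ± 0.04, and limma gave a log2 difference of -0.41 with a standard error of 0.083, an unadjusted p of 0.0132 and an adjusted p of 0.288. Its main transcript ENSMUST00000003115 was at 79.7 and 90.7 FPKM in shGR1 and shGR2 cells, against 115 FPKM in shCtrl cells. ENSMUST00000067327, which has the same coding length in 2 exons in place of 3, was at 38.1 and 33.7 FPKM, against 46.9 FPKM in shCtrl cells.

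Cdkn1a, which encodes p21 and is the classical target of p53, was at 79.1 FPKM in shGR1 cells and 68.6 FPKM in shGR2 cells, against 81.2 FPKM in shCtrl cells. The log2 ratios were -0.04 and -0.24 (mean -0.14 ± 0.14, limma adjusted p = 0.656), and with equal FPKM totals the shGR1 ratio turned to 0.05. Behind this small difference its 3 transcripts behaved unequally. The main transcript ENSMUST00000023829 was at 77.3 and 66.4 FPKM in shGR1 and shGR2 cells, against 73.7 FPKM in shCtrl cells. ENSMUST00000119901, which begins upstream, was at 0.281 and 0.509 FPKM in shGR1 and shGR2 cells, against 1.68 FPKM in shCtrl cells (log2 ratios -2.58 and -1.72). ENSMUST00000122348, which begins in the intron, was at 1.49 and 1.74 FPKM in shGR1 and shGR2 cells, against 5.83 FPKM in shCtrl cells (log2 ratios -1.97 and -1.74). The main transcript thus held 97.8% and 96.7% of the symbol in shGR1 and shGR2 cells, against 90.8% in shCtrl cells.

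All 3 transcripts have the same coding length of 477 bases and differ in their first exons and their ends, so the 2 minor forms and the main form share coding sequence. The minor forms rested on a rough estimate of 6 and 13 fragments in shGR1 and shGR2 cells, against 38 in shCtrl cells, for the upstream form, and of 40 and 52, against 150, for the intronic form. Cufflinks divided fragments of the shared exons between the transcripts, and with 1 library per line the difference between the forms was not tested. The bases before the upstream start (chr17:29090729-29090975, plus strand) and before the main start (chr17:29093519-29093768, plus strand) are shown because transcripts from these starts had unlike ratios to the control. The intronic form begins elsewhere, and the bases before its start are not shown.
Before the upstream Cdkn1a start: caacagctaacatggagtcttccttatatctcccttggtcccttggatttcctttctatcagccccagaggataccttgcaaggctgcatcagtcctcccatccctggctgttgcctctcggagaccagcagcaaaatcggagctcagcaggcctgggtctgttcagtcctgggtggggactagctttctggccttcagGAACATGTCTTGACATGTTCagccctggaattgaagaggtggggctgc
Before the main Cdkn1a start: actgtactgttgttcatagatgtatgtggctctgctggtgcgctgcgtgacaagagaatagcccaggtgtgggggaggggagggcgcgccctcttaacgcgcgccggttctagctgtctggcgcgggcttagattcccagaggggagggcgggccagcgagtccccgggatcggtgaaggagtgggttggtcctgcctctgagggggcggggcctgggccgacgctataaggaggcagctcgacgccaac
The capitals mark a match with at most 1 mismatch to the 20 letters of the p53 response element, which was searched after the sequences were read and was in 1 of the 11 starts of these genes and in 0.07% of all promoters. The match begins 51 bases before the upstream start. The GC contents of these windows were 54% and 64.8%.

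**Figure D3:**
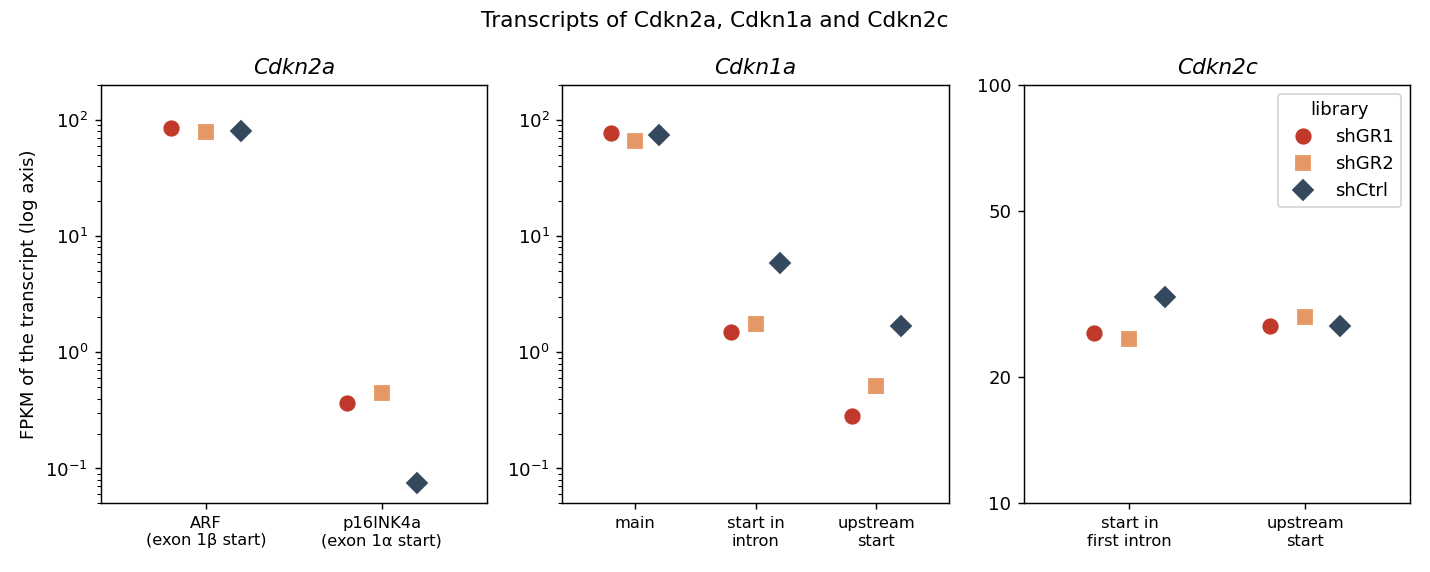
FPKM of single transcripts of Cdkn2a, Cdkn1a and Cdkn2c on log axes, 1 point for each of the shGR1, shGR2 and shCtrl libraries. The main transcripts of Cdkn2a and Cdkn1a lie close together in the 3 libraries, the p16INK4a transcript is at 0.363 and 0.442 FPKM, against 0.0753 FPKM in shCtrl cells, and the minor Cdkn1a transcripts are lower in shGR1 and shGR2 than in shCtrl.

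Cdkn1c, an imprinted gene encoding p57, was barely detected, at 0.287 FPKM in shGR1 cells and 0.591 FPKM in shGR2 cells, against 0.208 FPKM in shCtrl cells. Both log2 ratios were positive, at 0.46 and 1.51 (mean 0.99 ± 0.74, limma adjusted p = 0.606), but they rested on a rough estimate of 13 and 32 fragments, against 12 in shCtrl cells. In shGR1 cells 36.7% of the symbol was the non-coding transcript ENSMUST00000208118, listed at 0 in shCtrl cells. The coding transcript ENSMUST00000037287 was lower there, at 0.181 FPKM against 0.208 FPKM in shCtrl cells. In shGR2 cells another coding transcript, ENSMUST00000167912, held 70.5% of the symbol. The positive ratio in shGR1 cells thus lay in the non-coding transcript. Ccnd2 and Cdkn1c passed 0.3 FPKM only in shGR2 cells, so being highest there is no separate result. The principal cell marker Hsd11b2 and the proximal tubule marker Lrp2 were also highest in shGR2 cells, at 55.8 and 2.10 FPKM. So was a list of fibroblast markers. Of its 5 genes 4 were over 0.3 FPKM and none was listed at 0, and their sum was 5.67 FPKM in shGR1 cells and 12.6 FPKM in shGR2 cells, against 8.64 FPKM in shCtrl cells. The part of these markers in the Ccnd2 and Cdkn1c values was not tested. The CIP/KIP sum was 203 FPKM in shGR1 cells and 197 FPKM in shGR2 cells, against 248 FPKM in shCtrl cells (mean log2 ratio -0.31 ± 0.03), and Cdkn1b made up 60.8% and 64.8% of it, against 67.2%.

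Leaving out Cdkn2a, whose signal was nearly all ARF, Cdkn2c and Cdkn2b were the most abundant INK4 genes. They encode p18 and p15. Cdkn2b, known as a target of TGF-beta signalling, was at 30.3 FPKM in shGR1 cells and 24.0 FPKM in shGR2 cells, against 23.0 FPKM in shCtrl cells. The shGR1 value was above the control and the shGR2 value was close to it (log2 ratios 0.39 and 0.06, mean 0.23 ± 0.24, limma adjusted p = 0.629). Cdkn2c was at 52.1 FPKM in shGR1 cells and 52.6 FPKM in shGR2 cells, against 57.8 FPKM in shCtrl cells, a mean log2 ratio of -0.14 ± 0.01 (limma adjusted p = 0.520). Its transcript from the downstream start, ENSMUST00000063531, was at 25.5 and 24.8 FPKM in shGR1 and shGR2 cells, against 31.2 FPKM in shCtrl cells, while that from the upstream start, ENSMUST00000097921, was at 26.6 and 27.8 FPKM, against 26.6 FPKM in shCtrl cells. In these values the lower level of the symbol lay in the downstream form, but Cufflinks divided fragments of the shared exons between the 2 forms. The difference between the forms was not tested. With equal FPKM totals the mean log2 ratio of Cdkn2c was -0.04.

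Cdkn2d, which encodes p19INK4d, was at 11.2 FPKM in shGR1 cells and 7.41 FPKM in shGR2 cells, against 12.1 FPKM in shCtrl cells. As for Ccnd1, the shGR1 value was close to the control and the shGR2 value was lower (log2 ratios -0.12 and -0.71, mean -0.41 ± 0.42, limma adjusted p = 0.601). Cdkn2a differed little in either line (log2 ratios 0.09 and -0.02, mean 0.03 ± 0.08, limma adjusted p = 0.903), and with equal FPKM totals both ratios were positive. The INK4/ARF sum was 179 FPKM in shGR1 cells and 163 FPKM in shGR2 cells, against 173 FPKM in shCtrl cells, a mean log2 ratio of -0.02 ± 0.10.

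**Figure D4:**
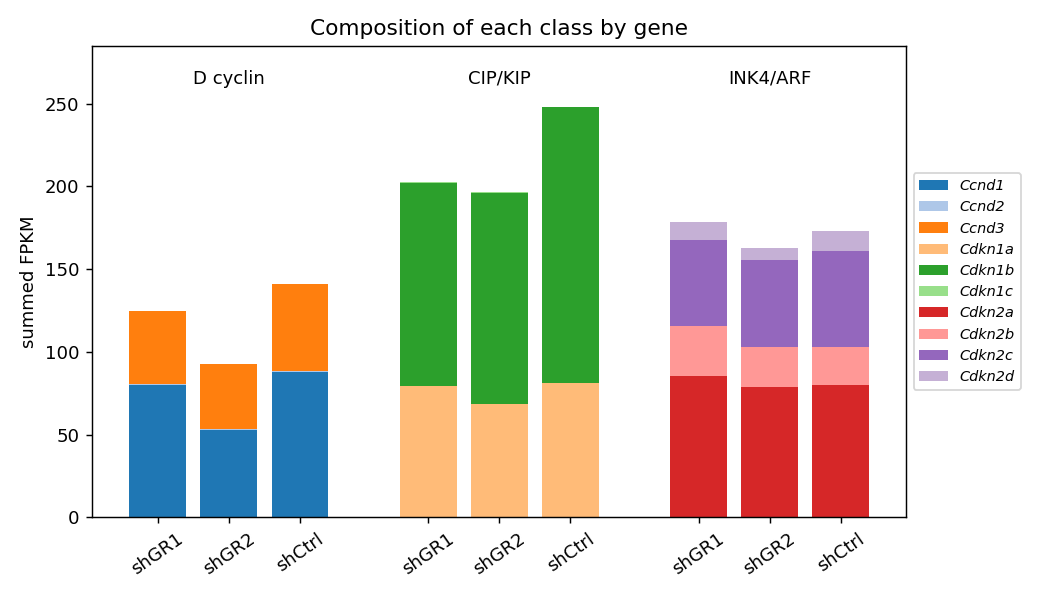
Summed FPKM of the D cyclins, the CIP/KIP genes and the INK4/ARF genes in shGR1, shGR2 and shCtrl cells, stacked by gene from 0. The CIP/KIP stacks reach 203 and 197 FPKM in shGR1 and shGR2, against 248 FPKM in shCtrl, and the D cyclin stacks reach 125 and 92.8 FPKM, against 141 FPKM.

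Over single transcripts, 28 of the 51 were over 0.3 FPKM in at least 1 library. Of these 14 were lower in both lines, 7 higher and 7 on opposite sides, beside 40.2% lower and 33.1% higher among all 46567 expressed transcripts. At 2-fold in both lines 4 were lower (the 2 minor transcripts of Cdkn1a and 2 minor ones of Ccnd3) and 2 higher (the p16INK4a transcript and a minor one of Ccnd3), beside 8.06% and 9.91% of all expressed transcripts. Of those of Ccnd3, ENSMUST00000182848 was listed at 0 in both knockdown lines and ENSMUST00000183158 at 0 in shCtrl cells. The mRNA ratio of CIP/KIP genes to D cyclins was 1.62 in shGR1 cells and 2.12 in shGR2 cells, against 1.76 in shCtrl cells, so the 2 lines lay on opposite sides of the control. The INK4 sum without the ARF transcript was 93.9 FPKM in shGR1 cells and 84.4 FPKM in shGR2 cells, against 93.0 FPKM in shCtrl cells, and its ratio to the D cyclin sum was 0.752 and 0.910, against 0.659 in shCtrl cells, which is higher in both lines. These ratios were not tested.

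Of the kinases that these proteins bind, Cdk4 had the highest level and Cdk6 the lowest. Cdk4 was at 221 and 220 FPKM in shGR1 and shGR2 cells, against 179 FPKM in shCtrl cells, and Cdk6 was at 13.6 and 14.8 FPKM, against 17.4 FPKM in shCtrl cells. Cdk2 was at 96.8 and 95.6 FPKM in shGR1 and shGR2 cells, against 86.5 FPKM in shCtrl cells, and Rb1, the retinoblastoma gene, at 17.5 and 20.2 FPKM, against 22.3 FPKM in shCtrl cells. Of the 13 expressed genes of a list of G1 kinases, pocket proteins and E and A cyclins, 6 were lower and 7 higher in both lines (median 0.05). Ccna2, the cyclin of S phase, stood highest, with a mean log2 ratio of 0.66 ± 0.20, Cdc25a had 0.33 ± 0.08, and Ccne2 had -0.37 ± 0.02.

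Among genes for the turnover of D cyclins and p27, 8 of 11 expressed genes were lower in both lines, 1 higher and 2 on opposite sides (median -0.10), but with equal FPKM totals 4 were lower and 4 higher. Usp2, a deubiquitinase known to stabilize cyclin D1, was the only gene of this list that was 2-fold lower in both lines, at 2.53 and 2.82 FPKM in shGR1 and shGR2 cells, against 7.92 FPKM in shCtrl cells (mean log2 ratio -1.57 ± 0.11). Skp1a, the adaptor of SCF ubiquitin ligases, had a mean log2 ratio of -0.54 ± 0.08, and Fbxo31, an F-box protein for cyclin D1, had -0.33 ± 0.21. Ambra1, the receptor that marks D cyclins for degradation, had 0.36 ± 0.28. Skp2, the F-box protein for p27, was listed at 0 in all 3 libraries. Whether the gene was silent or was not quantified cannot be told from these values.

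Of 15 expressed genes of the p53 axis 9 were lower in both lines, 3 higher and 3 on opposite sides (median -0.11), and with equal FPKM totals 6 were higher. Trp53 itself was at 62.5 and 57.7 FPKM in shGR1 and shGR2 cells, against 57.4 FPKM in shCtrl cells. Btg2, an antiproliferative target of p53, had a mean log2 ratio of 0.67 ± 0.01, whereas Sesn2, Sesn1 and the proapoptotic Bbc3 had -0.46 ± 0.24, -0.41 ± 0.04 and -0.39 ± 0.13.

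Of 13 expressed regulators of the Ink4-Arf locus 5 were lower in both lines and 6 higher (median -0.03), and with equal FPKM totals 3 were lower. Zbtb7a, a repressor of Arf, had a mean log2 ratio of -0.54 ± 0.01, and the polycomb genes Cbx7 and Ring1 had -0.52 ± 0.26 and -0.39 ± 0.01. Ezh2, the polycomb methyltransferase, had 0.36 ± 0.06. Of 12 expressed transcription factors that act on D cyclin and KIP genes 3 were lower in both lines and 5 higher (median 0.05), and with equal FPKM totals 9 were higher. Klf4, an activator of Cdkn1a, was at 5.97 and 3.69 FPKM in shGR1 and shGR2 cells, against 2.35 FPKM in shCtrl cells, a mean log2 ratio of 1.00 ± 0.49. Jun, a part of AP-1 and an activator of Ccnd1, was at 32.2 and 45.0 FPKM in shGR1 and shGR2 cells, against 19.3 FPKM in shCtrl cells, a mean log2 ratio of 0.98 ± 0.34. Its partner Fosl1 had 0.53 ± 0.24, and Foxo3, an activator of Cdkn1b, had -0.37 ± 0.07. None of the genes of these lists passed limma at an adjusted p of 0.05.

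**Figure D5:**
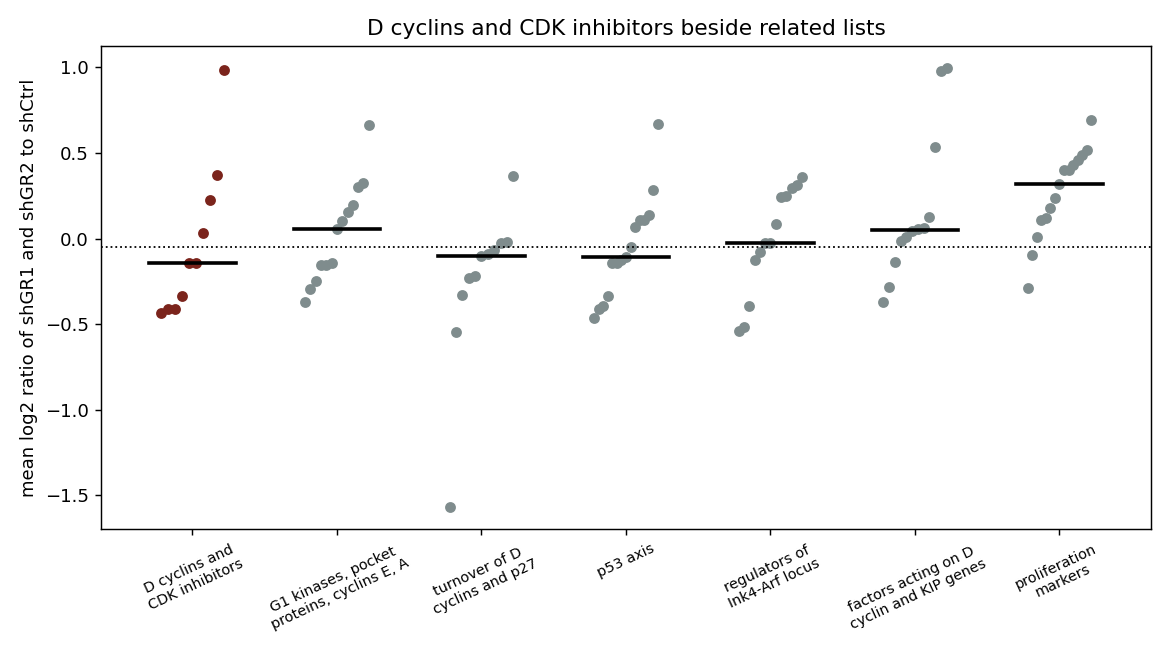
Mean log2 ratio of shGR1 and shGR2 to shCtrl for each expressed gene of 7 lists, 1 point per gene, with the median of each list as a bar and the median of all expressed symbols (-0.05) dotted. The medians run between -0.14 for the D cyclins and CDK inhibitors and 0.32 for the proliferation markers, and Usp2 is the lowest point at -1.57.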

How the data were processed

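Bulk RNA-seq of 3 mpkCCD libraries (shGR1, shGR2 and shCtrl) was analysed from the transcript table. Per the labels, the authors used bcl2fastq 2.20, HISAT2, Cufflinks 2.2.1 and Cuffdiff and deposited FPKM per Ensembl transcript; read counts were not used. The notes name GRCm39, but 50 of 51 loci of these genes spanned their GRCm38 position in GENCODE M21, so positions are GRCm38. Tables of the authors' own ratios, p-values and q-values were not used. FPKM were summed per symbol, with expression above 0.3 FPKM in any library, and ratios were taken to shCtrl. limma 3.58.1 (R 4.3.3) was fitted on log2(FPKM + 0.1) of 15438 symbols, with an abundance trend and Benjamini-Hochberg adjustment. It was tested on data simulated with the same spread in control and knockdown libraries, which cannot check whether the control varies like the knockdown lines. A rough worth of 1 fragment was the 5th percentile of FPKM times length in kilobases over single-transcript symbols. Text names all 10 genes, Nr3c1, Cdk2, Cdk4, Cdk6, Rb1 and, of each list, up to 4 genes with the largest mean ratio on the same side in both lines; other genes were named after their values were seen. Genes and lists were chosen with earlier results of these data known. Scalings, filters, pseudocounts and transcript choices were varied.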

Additional observations from a re-analysis of the deposited data

Results flagged for a closer look

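Ccnd2 and Cdkn2a lay on opposite sides of the control in the 2 knockdown lines. The log2 ratio of Ccnd2 was -0.014 in shGR1 cells and 0.76 in shGR2 cells, at levels under 0.5 FPKM, and that of Cdkn2a was 0.088 in shGR1 cells and -0.024 in shGR2 cells. The difference between the lines was not tested, since each line had 1 library, and 23.5% of all expressed symbols lay on opposite sides in the same way.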

How the results depend on the processing

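The number of genes lower in both lines, 6 of 10, stayed between 5 and 7 over all alternatives, and the number higher in both, 2, became 4 with equal FPKM totals, with median-centred ratios and with quantile normalization, 1 with the top transcript of each symbol, and 1 with a filter of over 1 FPKM, which left 8 genes. With 1 line left out, 7 were lower and 3 higher either way. limma called 0 symbols lower and 0 higher in the planned fit, 147 lower and 65 higher with median-centred ratios, 82 lower and 28 higher with robust moderation, and 0 in the other settings. None of the 10 was called in any of these settings, and the adjusted p of Cdkn1b ranged between 0.168 and 0.433. limma was not run with 1 line left out, since no residual degree of freedom is left. Cdkn1c gave no finite ratio with the top transcript or with transcripts over 0.3 FPKM summed, because its transcript was listed at 0 in shGR1 cells. Of 88 alternative values of the mean log2 ratios, 78 moved by less than the spread between the lines, 10 moved by more, and 0 changed sign among genes with a direction. Values with 1 line left out could only move by less than this spread, and could not change sign for such genes. The spread is also wide where the lines disagree, so these counts do not measure how firm a difference is. No paired analysis was possible because the labels give no replicate numbers that pair the lines and each line has 1 library. Genes under 1 FPKM and minor transcripts rest on few fragments, and the depth is unknown.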
